A study of Mus musculus with 74 samples.

Results

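Fatty acid synthesis, elongation and desaturation were represented by 10 genes chosen by name for their place in that route, Acly, Acaca, Acacb, Fasn, Elovl1, Elovl5, Elovl6, Scd1, Scd2 and Fads1, out of 53379 genes counted in each library. The choice was made with earlier results of these data known. All 10 were present in every file and passed the filter on low counts in every comparison. The study asked how a central and a peripheral injury of the same sensory axons change RNA in lumbar dorsal root ganglia (DRG), which hold the cell bodies of sensory neurons wrapped in satellite glia. One experiment sequenced ribosomal RNA-depleted total RNA of whole L4 DRG from C57BL/6 wild type female mice aged 10 to 12 weeks, 4 uninjured and 4 taken 1 day after spinal cord injury (SCI), a dorsal hemisection at T9/10. The other sorted YFP-positive L4 cells from female mice of the Thy1YFP16 strain aged 10 to 20 weeks, in which the Thy1 promoter drives YFP, into wells of about 100 cells with 3 wells per mouse and amplified the RNA of each well. Its groups were naive (6 mice) and, with 4 mice each, sciatic nerve injury (SNI, a crush) at 1 and 3 days and SCI at 1 and 3 days. The labels give each naive mouse a day, 1 or 3, and naive mice of both days were pooled. Every mouse of the sort carried the YFP transgene, injured or not. The mice fell into a set named FACS (12 mice) and a set named FACS2018 (10 mice), and each set held every group. In 20 of the 66 wells glial genes took up a large share of the reads, so sorted-cell results are given with and without those wells. Reads on genes numbered 21959030 to 44493319 per whole DRG library, 30518187 to 83599972 per sorted mouse and 1494217 to 49015375 per well.

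Fatty acid synthesis begins in the cytosol, where ATP citrate lyase (Acly) splits citrate into acetyl-CoA, acetyl-CoA carboxylase (Acaca, and Acacb at the mitochondrial surface) makes malonyl-CoA, and fatty acid synthase (Fasn) builds palmitate. In the endoplasmic reticulum, elongases lengthen the chain: Elovl6 acts on palmitate, Elovl1 on saturated very long chains and Elovl5 on polyunsaturated chains. Desaturases add double bonds: Scd1 and Scd2 make monounsaturated fatty acids and Fads1 acts on polyunsaturated ones. Myelin is rich in lipid, and Schwann cells are known for strong expression of this route.

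Promoter windows are shown for the members on which the whole DRG result and the Fasn levels described here turn. RefSeq sequence on GRCm38.p6, 250 bases before each start site, matched 7 of the 10 members with 8 windows, and Scd1, Scd2 and Fads1 had no entry. Bases of annotated exons are left out of the printed windows. Capitals mark the letters CCAAT or ATTGG (the same box on either strand) and, in Elovl5, CACGTG. The Elovl6 window is chr3:129532136-129532354 (plus strand), that of Elovl5 chr9:77917115-77917363 (plus), that of Acacb chr5:114165268-114165508 (plus, within an intron of the longer annotated Acacb transcript) and that of Fasn chr11:120824548-120824797 (minus), each written 5′ to 3′ along the gene.
Elovl6: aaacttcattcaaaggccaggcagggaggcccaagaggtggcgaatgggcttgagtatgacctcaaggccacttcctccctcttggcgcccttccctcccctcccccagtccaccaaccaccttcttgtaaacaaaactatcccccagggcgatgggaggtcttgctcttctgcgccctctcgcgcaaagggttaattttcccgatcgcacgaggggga
Elovl5: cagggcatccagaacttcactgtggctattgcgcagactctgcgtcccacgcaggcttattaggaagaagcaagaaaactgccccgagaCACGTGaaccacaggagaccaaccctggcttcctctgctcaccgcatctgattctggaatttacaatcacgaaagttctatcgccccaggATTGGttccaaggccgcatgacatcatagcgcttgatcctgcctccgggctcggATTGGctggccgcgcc
Acacb: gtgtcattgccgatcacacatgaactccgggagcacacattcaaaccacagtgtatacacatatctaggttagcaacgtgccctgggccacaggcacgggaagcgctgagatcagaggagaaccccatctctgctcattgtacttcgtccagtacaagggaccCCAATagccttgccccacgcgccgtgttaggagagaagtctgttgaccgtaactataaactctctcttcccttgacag
Fasn: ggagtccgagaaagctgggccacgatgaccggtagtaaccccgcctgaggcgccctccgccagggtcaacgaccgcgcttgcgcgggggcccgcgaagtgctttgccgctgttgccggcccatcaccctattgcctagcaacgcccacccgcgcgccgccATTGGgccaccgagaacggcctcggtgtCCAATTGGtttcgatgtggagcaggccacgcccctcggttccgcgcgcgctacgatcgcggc

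The CCAAT box on either strand was present in 4 of the 7 members (Acacb, Elovl1, Elovl5 and Fasn) and in 33.8% of all 32851 promoter windows, and in Fasn a forward and a reverse copy overlapped each other. The GC box, GGGCGG on either strand, was present in 2 members (Acly and Elovl1), against 32.7% of all windows, and in Elovl1 one copy overlapped the CCAAT box.

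The E box CACGTG was present in 1 member, Elovl5, against 6.02% of all windows. The letters TCACNCCAC (1.05% of all windows), TGACGTCA (1.55%) and TGANTCA (6.75%), read on both strands, were in none of the members' windows. The Elovl6 window, of the member that moved most, held none of these 6 motifs, which says only that those letters are absent from it. A match of letters describes the sequence and is not a binding site.

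In uninjured whole DRG the members spanned a wide range of levels. Scaled to gene length as transcripts per 1000000 (TPM), Scd2 stood first at 1370 ± 75 (SD, n = 4 for all values here), Scd1 followed at 855 ± 51.9 and Acly at 615 ± 28.3. Elovl5 reached 392 ± 32.2 TPM, Fasn 215 ± 17.7, Fads1 128 ± 6.26 and Elovl6 108 ± 4.83. Elovl1 (60 ± 1.85 TPM), Acaca (19.7 ± 1.51) and Acacb (6.35 ± 0.616) closed the order. No neighbours in this order overlapped over the 4 mice, so the mitochondrial carboxylase Acacb was the lowest member in every uninjured mouse.

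One day after SCI, whole DRG held less RNA of the elongases Elovl6 and Elovl5 and of the desaturase Scd1, by 37.9%, 24.7% and 24.7%, and more Acacb RNA, by 36.0%. These 4 of the 10 members passed an adjusted p of 0.1 in edgeR's quasi-likelihood test over 17616 genes, 3 lower and 1 higher. Over all genes tested 2.32% passed, 0.937% lower and 1.38% higher. Of the members 8 of 10 had a lower estimate (median log2 difference -0.18), against 46.9% of all genes (median 0.01). Because the members were chosen with earlier results of these data known, this contrast with all genes is a description and not a test. In whole ganglia, fewer cells of a type and less RNA per cell cannot be told apart. The count of genes passing ranged from 104 to 640, and that of members from 1 to 5, when each mouse was left out in turn.

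**Figure D1:**
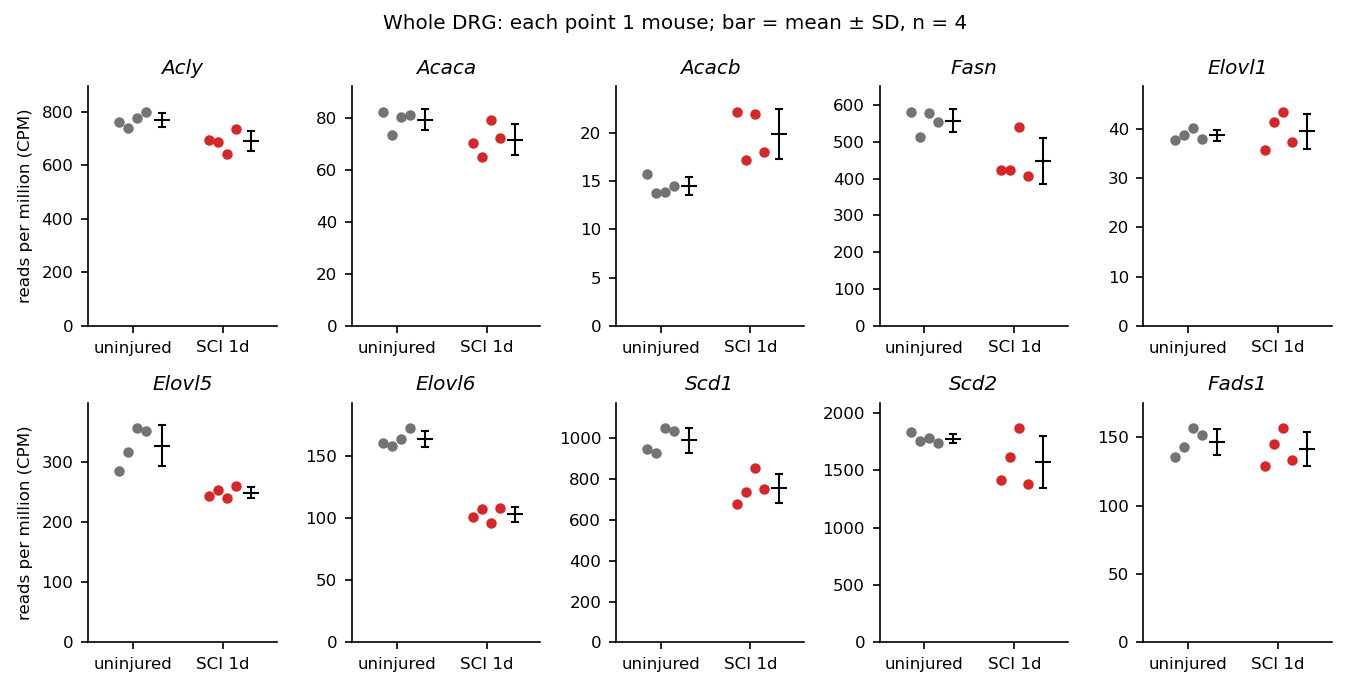
Reads per 1000000 reads on genes (CPM) of each member in whole DRG, 1 point per mouse, grey for uninjured and red for 1 day after SCI, with bars for the mean and SD of 4 mice. The uninjured and SCI points of Elovl6 lie apart, at 158.5 to 173 and 96.0 to 108 CPM, while those of Elovl1 and Fads1 overlap.

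Among the precursor and malonyl-CoA enzymes, Acacb, whose malonyl-CoA is known to restrain carnitine-dependent fatty acid entry into mitochondria, was the member that rose. It measured 15.8, 13.8, 13.9 and 14.4 CPM in uninjured mice 1 to 4 and 22.2, 17.2, 22 and 18.0 CPM in SCI mice 1 to 4. Every SCI mouse lay above every uninjured one. The fit gave a log2 difference of 0.44 (SE 0.108, edgeR adjusted p = 0.0913). This call passed in only 1 of 8 fits that left a mouse out (adjusted p = 0.0631 without uninjured mouse 1, and 0.102 to 0.249 without each of the other 7), so it lay at the limit of the design. Acacb overlaps an annotated gene on the opposite strand, and whether counting used strand is not given in the sources used here.

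Acaca, the cytosolic carboxylase, went from 79.5 ± 4.01 to 71.8 ± 5.88 CPM (SD, n = 4), with a log2 difference of -0.16 and an edgeR adjusted p of 0.367, and the groups overlapped. Acly, the source of cytosolic acetyl-CoA, measured 761, 738, 776 and 800 CPM in uninjured and 693, 688, 643 and 737 CPM in SCI mice. Its groups did not overlap but nearly met, and the log2 difference of -0.17 (SE 0.0616) did not pass (edgeR adjusted p = 0.232). Fasn, the palmitate synthase, measured 581, 514, 578 and 554 CPM in uninjured and 423, 423, 541 and 406 CPM in SCI mice. SCI mouse 3 lay within the uninjured range and the other 3 SCI mice lay below it. The fit gave Fasn a log2 difference of -0.33 (SE 0.0935, edgeR adjusted p = 0.141), and without SCI mouse 3 it gave -0.42 with an adjusted p of 0.0197. With all mice kept, Fasn passed in DESeq2 (adjusted p = 0.051) and in edgeR without the filter on low counts (adjusted p = 0.0968).

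Elovl6, the elongase that turns palmitate into stearate, carried the largest difference among the 10 members. It measured 161, 158.5, 164 and 173 CPM in uninjured mice and 101, 107.5, 96.0 and 108 CPM in SCI mice. The highest SCI mouse lay well below the lowest uninjured mouse. The log2 difference was -0.69 (SE 0.0635, edgeR adjusted p = 0.00137), and it passed in 8 of 8 fits that left out a mouse (adjusted p from 0.00193 to 0.00936). Elovl6 shares bases with annotated genes on both strands.

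Elovl5, which elongates polyunsaturated chains, measured 285, 317, 356 and 351 CPM in uninjured and 243, 253.5, 241 and 260 CPM in SCI mice. The groups did not overlap, and the uninjured mice varied more (SD 33.2 CPM) than the SCI mice (SD 8.95 CPM). The log2 difference was -0.41 (SE 0.0735, edgeR adjusted p = 0.0349). It passed in 5 of 8 fits that left out a mouse and did not without uninjured mouse 3, uninjured mouse 4 or SCI mouse 1 (adjusted p = 0.125, 0.109 and 0.117). Elovl1, the elongase of saturated very long chains, measured 38.7 ± 1.13 and 39.5 ± 3.54 CPM (SD, n = 4), with a log2 difference of 0.01 and an edgeR adjusted p of 0.954.

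Scd1, a stearoyl-CoA desaturase that makes oleate, measured 951, 928, 1050 and 1036 CPM in uninjured and 678, 736, 853 and 753 CPM in SCI mice. Each SCI mouse lay below each uninjured one. The log2 difference was -0.41 (SE 0.0769, edgeR adjusted p = 0.0377), and it did not pass without uninjured mouse 3, uninjured mouse 4, SCI mouse 1 or SCI mouse 2 (adjusted p = 0.128, 0.12, 0.122 and 0.127). Scd2, a paralog and the most abundant member, measured 1830, 1757, 1780 and 1738 CPM in uninjured and 1414, 1620, 1866 and 1380 CPM in SCI mice. SCI mouse 3 stood above the uninjured mice and the other 3 below them. The fit gave Scd2 a log2 difference of -0.20 (SE 0.0899, edgeR adjusted p = 0.352), and -0.28 with an adjusted p of 0.0649 without SCI mouse 3. Because Scd1 and Scd2 are paralogs, reads could be split between them, and their separate values are uncertain to that extent. Fads1, the delta-5 desaturase of polyunsaturated chains, overlapped between groups at 146 ± 9.41 and 141 ± 12.3 CPM (SD, n = 4; log2 difference -0.07, edgeR adjusted p = 0.716).

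Markers of the cell types a ganglion holds were set beside these differences. Reads on 9 glial genes made up 0.730% to 0.809% of the library in uninjured and 0.652% to 0.797% in SCI mice (2-sided exact permutation p = 0.2), and neuronal genes 1.81% to 1.98% and 1.79% to 1.91% (exact permutation p = 0.571). Macrophage genes were higher after SCI, at 0.00370% to 0.00521% against 0.00524% to 0.00602%, with no overlap and an exact permutation p of 0.0286, the smallest that 4 against 4 mice allow. Red blood cell genes were at 0.00133% to 0.00208% and 0.00206% to 0.00900% (exact permutation p = 0.0571). Adipocyte genes were near 0, with Adipoq at no more than 0.362 CPM in any library. The part of these cell types in the members' differences was not tested.

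Around the members, 52 further genes of fatty acid metabolism in 6 lists were examined, of which 49 were tested in whole DRG. None was higher and 4 were lower at an adjusted p of 0.1. Fads2, the delta-6 desaturase that precedes Elovl5 and Fads1 in polyunsaturated synthesis, fell from 122 ± 2.73 to 90.3 ± 8.42 CPM (SD, n = 4; log2 difference -0.45, SE 0.0721, edgeR adjusted p = 0.0210). Acsl3, a long-chain acyl-CoA synthetase, fell from 138.9 ± 12.5 to 106.8 ± 12.8 CPM (log2 difference -0.40, edgeR adjusted p = 0.0946). Acsbg1, another acyl-CoA synthetase, fell from 134.1 ± 4.49 to 104.8 ± 11.1 CPM (log2 difference -0.37, edgeR adjusted p = 0.0595). Slc25a1, the carrier that brings citrate out of mitochondria to Acly, fell from 113.9 ± 8.48 to 94.6 ± 4.59 CPM (log2 difference -0.29, edgeR adjusted p = 0.0811).

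By list, 1 of 7 tested other elongases and desaturases was lower (median log2 difference of the list -0.05), 2 of 6 acyl-CoA synthetases (-0.01) and 1 of 7 genes of precursor supply and mitochondrial fatty acid synthesis (0.01). None of the 6 partners of the elongation cycle (-0.02), of the 11 lipogenic regulators (0.02) or of the 12 genes of fatty acid oxidation (0.10) passed edgeR's test. At an unadjusted p under 0.05 these 3 lists held 0, 3 and 3 genes, and DESeq2 called 0, 2 and 3. Of all 17616 genes, 2570 had such a p in edgeR and DESeq2 called 929. Among the regulators Srebf1, the transcription factor known to drive the members, had a log2 difference of -0.23 (edgeR adjusted p = 0.362), and Insig1, a brake on sterol-regulated activation of that factor, one of -0.27 (adjusted p = 0.149). The median over all genes was 0.01, and single genes of the lists ran from -0.45 (Fads2) to 1.43 (Pdk4).

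**Figure D2:**
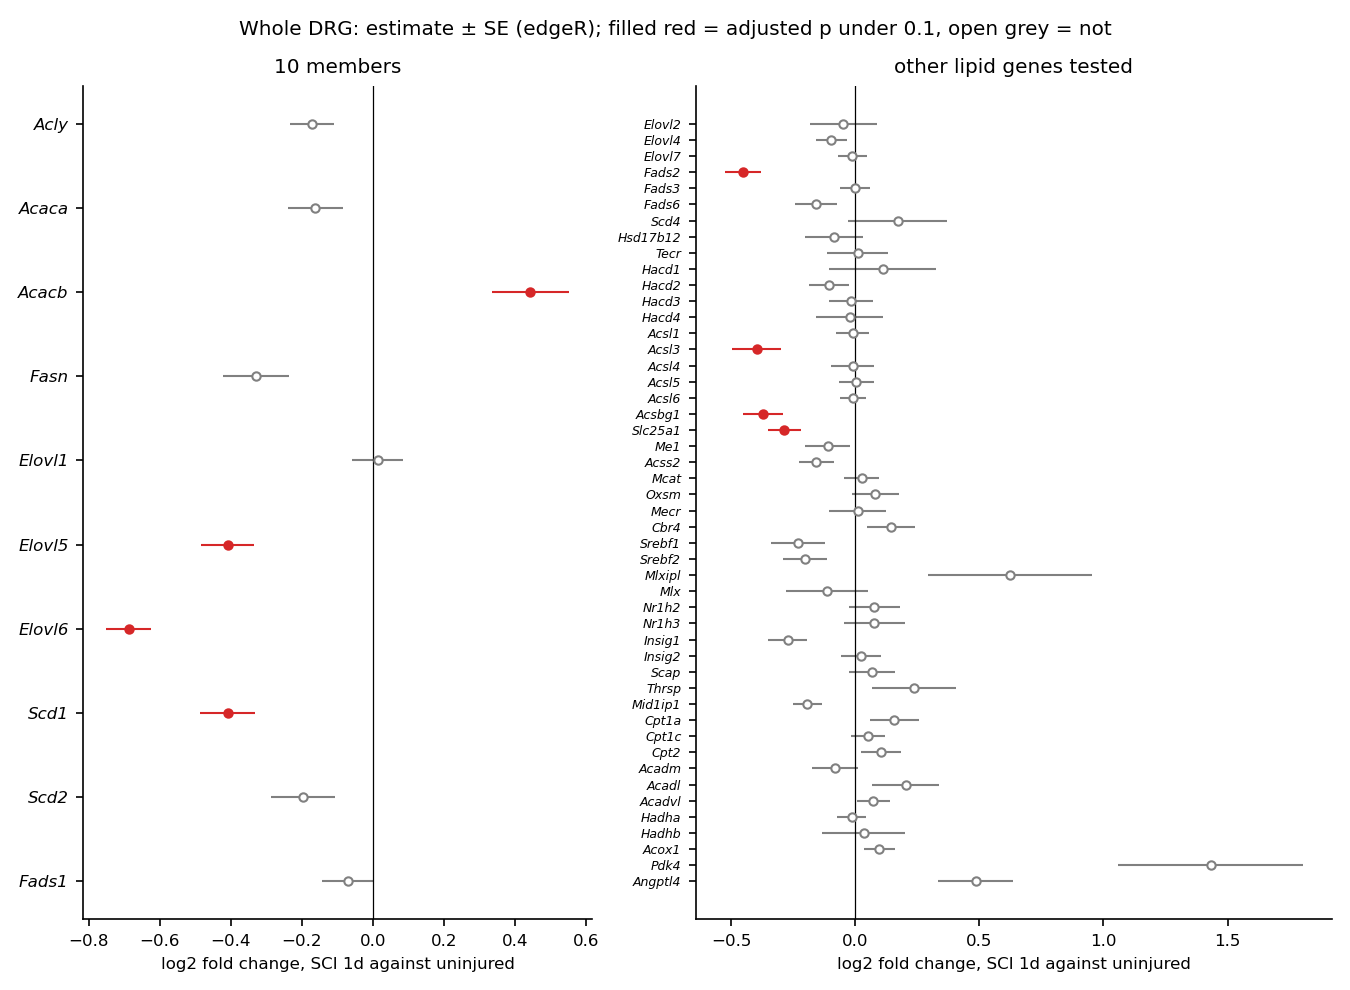
Log2 fold change of SCI 1 day against uninjured in whole DRG, with its SE, for the 10 members (left) and other lipid genes (right), where filled red points passed an adjusted p of 0.1. Elovl6 lies farthest left at -0.69 and Acacb is the single red point to the right at 0.44.

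The sorted cells were deposited by well, which allowed the sources of the members' RNA to be described. In 20 of 66 wells at least 2% of reads fell on the 9 glial genes (range 3.25% to 14.3%), and these are called glia-rich here. The other 46 wells held 0.328% to 1.6%. Neuronal genes ran the other way, at a median of 0.0475% of reads in glia-rich wells and 3.46% in the others, although all wells were sorted as YFP-positive. Glia-rich wells were found in every group (6 naive, 3 each at 1 day after SNI and SCI, 4 each at 3 days) and made up 13 of 30 wells in FACS2018 and 7 of 36 in FACS. These 2 kinds of wells are a description of the libraries and no test was made between them.

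Both Scd genes, Elovl1 and Fads1 had higher medians in the glia-rich wells, as did Elovl6, whose within-mouse difference turned from 0.99 to -1.65 (median log2) when wells were split at 1% of reads. Scd2 ranged from 638 to 3213 CPM with a median of 1865 there, against 223 to 851 with a median of 358 in the other wells, and 18 of 20 glia-rich wells exceeded every other well. Elovl1, an elongase of the very long chains found in myelin lipids, had medians of 786 and 69.0 CPM, and 17 of 20 glia-rich wells exceeded every other well. Scd1 had medians of 502 and 124 CPM, Fads1 of 83.6 and 16.0, and Elovl6 of 81.6 and 17.3, with overlapping ranges. In the 12 mice with both kinds, the glia-rich wells were higher for Scd2 in 12, for Scd1 and Elovl1 in 11, for Fads1 in 10 and for Elovl6 in 8.

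The enzymes of de novo synthesis and Elovl5 ran the other way. Acly had a median of 43.1 CPM in glia-rich wells and 326 in the others, and it was lower in the glia-rich wells of 12 of 12 mice, Elovl5 in 10, Acaca in 9 and Fasn in 8. Elovl5 had medians of 12.0 and 259 CPM, Acaca of 0.585 and 16.2, and Fasn of 5.57 and 36.5. Several of these ranges were wide, since Elovl5 ran from 0.761 to 890 CPM among glia-rich wells and Fasn from 0.137 to 298, where 4 glia-rich wells exceeded every other well and the means of both kinds were 41.9 CPM. Acacb had 0 reads in 11 of 20 glia-rich and 7 of 46 other wells and never passed 19.5 CPM. By these medians the desaturases and Elovl1 were higher where glial genes were, and Acly, Acaca and Elovl5 where neuronal genes were.

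Whole DRG libraries were made with another kit and are only set beside the wells. Their median was 527 CPM for Fasn and 76.5 for Acaca, above the medians of both kinds of wells, and 38.4 for Elovl1, below both. Among naive mice with the glia-rich wells left out, the order by TPM was Scd2 (277 ± 107, SD, n = 6 for all values here), Elovl5 (228 ± 114), Acly (188 ± 105), Elovl1 (142 ± 122) and Scd1 (119 ± 98.6). Elovl6 (28.2 ± 18.7 TPM), Fads1 (18.9 ± 19.3), Fasn (13.3 ± 7.31), Acaca (2.32 ± 1.3) and Acacb (1.11 ± 1.05) followed. Over these 6 mice all neighbours in the order overlapped except Fasn and Acaca.

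**Figure D3:**
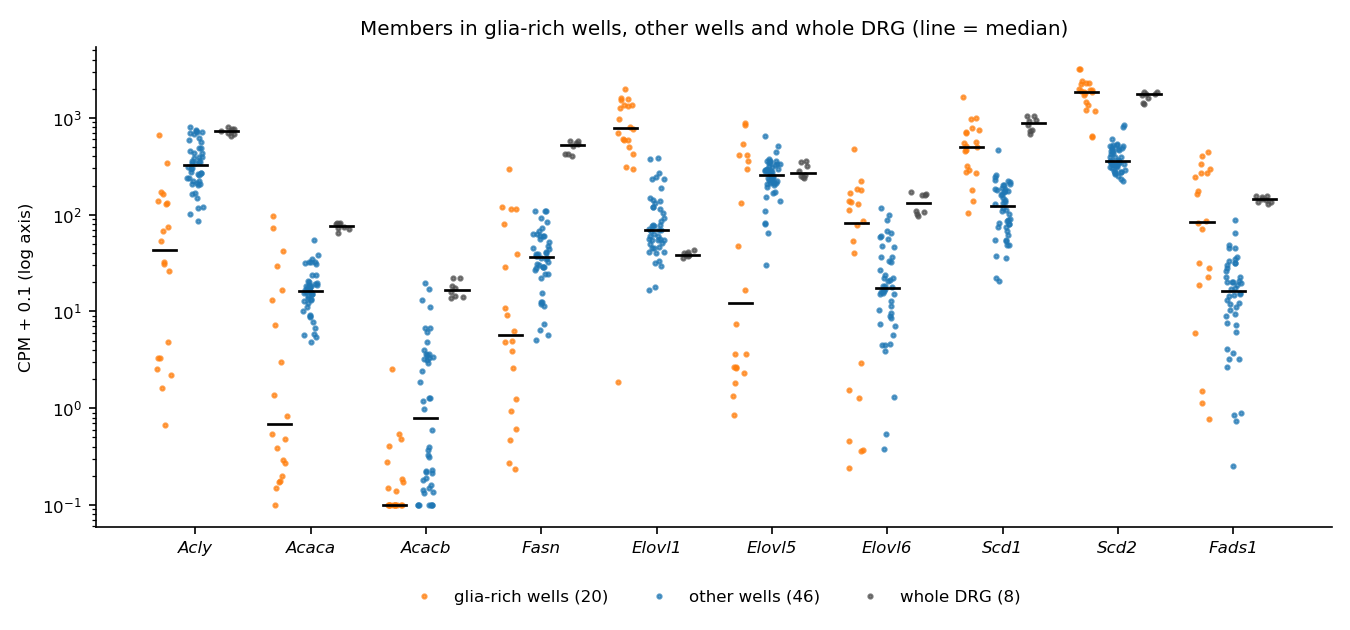
CPM plus 0.1, on a log axis, of each member in the 20 glia-rich wells (orange), the 46 other wells (blue) and the 8 whole DRG libraries of both groups (grey), with lines at the medians. Scd2 and Elovl1 stand higher in glia-rich wells (medians 1865 and 786 CPM, against 358 and 69.0), and Acly and Elovl5 lower.

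With all wells of a mouse summed, no member passed an adjusted p of 0.1 in edgeR's test in the sorted cells. The share of all 23507 genes that passed was 0.685% for SNI 1 day against naive, 0.706% for SNI 3 days, 0.0170% for SCI 1 day and 0% for SCI 3 days, and 0% for SCI against SNI at either day. At an unadjusted p under 0.05 the members held 1 and 2 for SNI at 1 and 3 days, 0 and 0 for SCI, and 0 and 3 for SCI against SNI. Of all 23507 genes, 3519 and 2992 had such a p for SNI, 2981 and 2208 for SCI, and 2408 and 1990 for SCI against SNI. In the comparisons where no gene passed, DESeq2 called 1221, 1116 and 974 genes. Among the members, DESeq2 called 1 for SNI 3 days (Acaca, log2 difference 1.19, adjusted p = 0.0386) and 1 for SCI against SNI at 3 days (Fasn, -1.44, adjusted p = 0.0955). Exact permutation tests of the mice gave an unadjusted p under 0.05 for 1 of 40 member comparisons with naive (Acaca at SNI 3 days, p = 0.0429). Of single genes, only the members were tested in this way. No marker list, glia included, had an exact permutation p under 0.05 against naive in any group with all wells summed. With the glia-rich wells left out, macrophage genes at SNI 1 day had an exact permutation p of 0.0333, at no more than 0.00075% of reads. There fibroblast genes had an exact permutation p of 0.176 and glial genes one of 0.548.

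With the glia-rich wells left out, 20 mice remained (6 naive, 4 and 3 for SNI at 1 and 3 days, 4 and 3 for SCI), since 2 mice of FACS2018 had no other well. Elovl6 then passed as lower after SNI in the fit with 2 estimated factors of unwanted variation, and did not pass without covariates. The share of 22620 genes passing was then 8.17% for SNI 1 day, 7.57% for SNI 3 days, 0.217% for SCI 1 day, 0% for SCI 3 days, and 0.889% and 0% for SCI against SNI at 1 and 3 days. The members passing were 1 for SNI 1 day (Elovl6), 2 for SNI 3 days (Elovl6 and Acly) and 0 for the others, a share that is near the background of those comparisons. At an unadjusted p under 0.05 the members held 3, 3, 3, 2, 3 and 4 in the same order. All 22620 genes held 5154, 5216, 3960, 3299, 3016 and 1679. The median log2 difference over all genes was not at 0 against naive, at 0.64, 0.63, 0.62, 0.52, 0.03 and -0.03 in that order. These fits lean on the 2 estimated factors of unwanted variation, so each call is given with its p without covariates and with an exact permutation of the mice.

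Elovl6 in the remaining wells measured 17.9 CPM in the lowest, 55.8 in the median and 118 in the highest naive mouse. After SNI it measured 15, 7.12, 8.21 and 17.5 CPM at 1 day and 12.6, 9.66 and 10.8 CPM at 3 days. All 7 SNI mice lay below all 6 naive mice, by a margin that was small for the nearest pair. With all wells summed the groups overlapped, and the fitted log2 differences were -1.05 and -0.86 at 1 and 3 days (edgeR adjusted p = 0.455 and 0.578, exact permutation p = 0.133 and 0.219). In the remaining wells the log2 difference at 1 day was -2.19 (SE 0.461, edgeR adjusted p = 0.0172), with an adjusted p of 0.119 without covariates and an exact permutation p of 0.00952. At 3 days it was -2.35 (SE 0.523, edgeR adjusted p = 0.0292), with 0.185 without covariates and an exact permutation p of 0.0238. The 1 day call passed in 20 of 20 fits that left out a mouse and the 3 day call in 19, the exception being the first FACS mouse at 3 days after SNI (adjusted p = 0.122). Each of these fits again used 2 estimated factors, so they do not show whether the call depends on those factors. They were chosen after seeing the data.

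After SCI, Elovl6 in these wells measured 11.9, 30.6, 30.3 and 32.1 CPM at 1 day and 10.3, 33.0 and 32.9 CPM at 3 days. Both groups overlapped naive. The log2 differences were -1.14 and -1.16 (edgeR adjusted p = 0.204 and 0.286, exact permutation p = 0.124 and 0.155), and with all wells -0.56 and -0.68 (edgeR adjusted p = 0.794 and 0.753). SCI against SNI at 1 day had an exact permutation p of 0.0857, so a difference between the injuries in Elovl6 was not shown.

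Acly in these wells measured 167, 286 and 678.5 CPM in the lowest, median and highest naive mouse and 523, 440 and 715 CPM at 3 days after SNI. The groups overlapped through 1 naive mouse of FACS2018. The log2 difference was 0.85 (SE 0.240, edgeR adjusted p = 0.0651), with 0.678 without covariates and an exact permutation p of 0.107. The call was lost in 3 of 20 fits that left out a mouse, with an adjusted p of up to 0.223.

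Fasn in these wells measured 33.6, 38.8 and 97.3 CPM in the lowest, median and highest naive mouse and 25.2, 18.3, 20.7 and 9.41 CPM at 1 day after SCI. The SCI mice all lay below the naive mice, with an exact permutation p of 0.00476, the smallest these groups allow. With all wells summed, Fasn overlapped between these groups (fitted log2 difference -0.47, edgeR adjusted p = 0.754, exact permutation p = 0.438). The fit across all genes gave a log2 difference of -1.57 (SE 0.373) that did not pass (edgeR adjusted p = 0.119, and 0.516 without covariates). After SNI at 1 day Fasn measured 38.0, 45.3, 33.7 and 39.1 CPM, above each SCI 1 day mouse (difference of mean log2 values -1.11, exact permutation p = 0.0286, the smallest that 4 against 4 mice allow), and with all wells the difference was -0.59 (exact permutation p = 0.343). At 3 days it measured 48.2, 70.5 and 81.8 CPM after SNI and 39.3, 36.1 and 15.3 CPM after SCI, again without overlap (exact permutation p = 0.1, the smallest that 3 against 3 mice allow). With all wells the groups overlapped at 3 days (exact permutation p = 0.0571).

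Scd2 in these wells measured 333, 481 and 851 CPM in the lowest, median and highest naive mouse and 336, 299, 363 and 262 CPM at 1 day after SCI. Groups overlapped, and the log2 difference of -0.69 had an edgeR adjusted p of 0.129 and an exact permutation p of 0.0286 (0.31 with all wells). Elovl6 at both SNI times, Fasn and Scd2 at 1 day after SCI were the 4 of 40 member comparisons with naive with an unadjusted exact permutation p under 0.05, and Fasn at 1 day was the 1 of 20 between SCI and SNI. This test was not run over all genes, so these counts have no share of all genes beside them and do not set the members apart. The other members had wide naive ranges, among them Scd1 and Fads1, in which 1 naive mouse of FACS2018 stood above the rest.

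**Figure D4:**
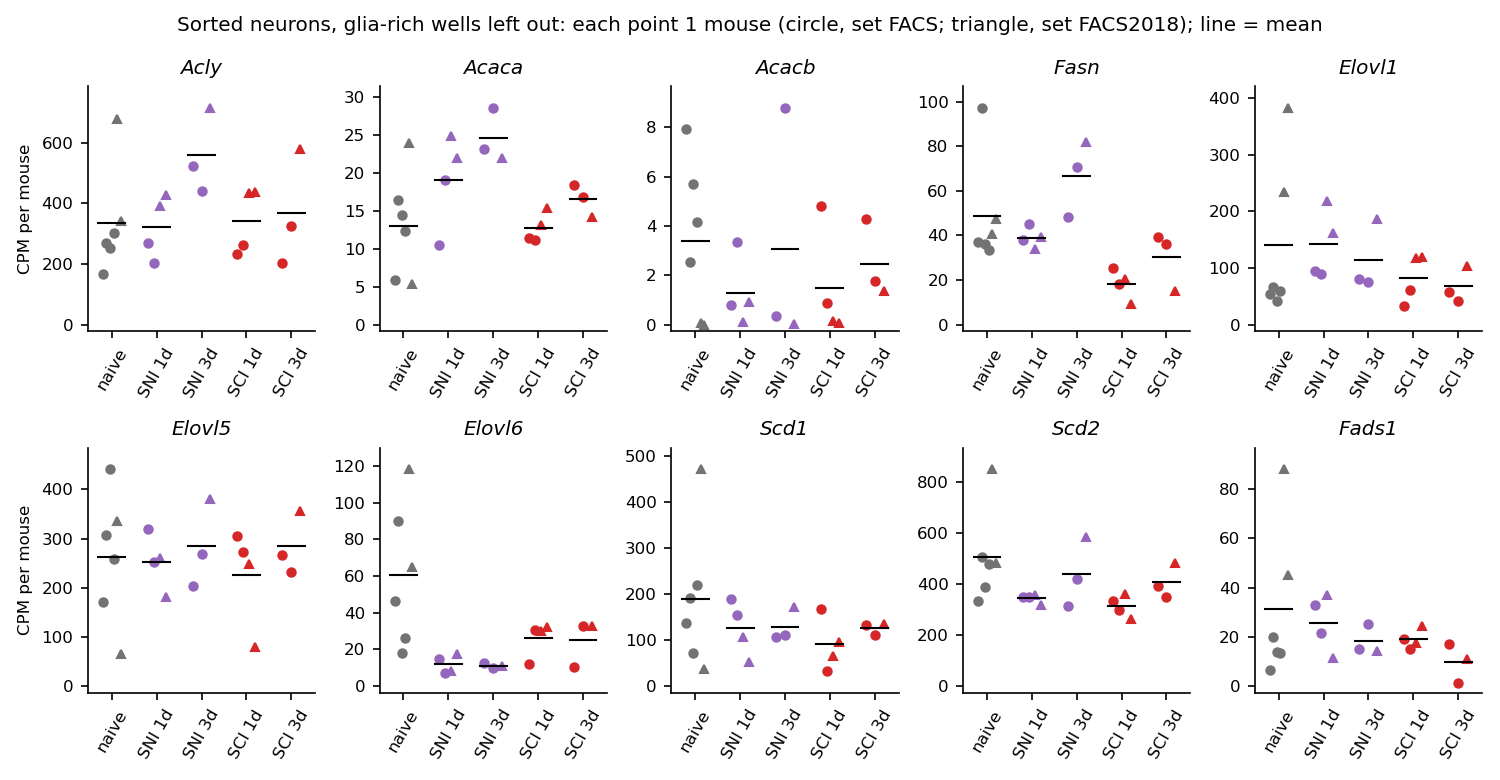
CPM of each member per mouse in the sorted cells with glia-rich wells left out, by group, with circles for set FACS, triangles for FACS2018 and a line at the mean. Elovl6 lies at 7.12 to 17.5 CPM in the 7 SNI mice, under the lowest naive mouse at 17.9, and Fasn at 9.41 to 25.2 CPM in the SCI 1 day mice, under the lowest naive mouse at 33.6.

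Of the 51 further lipid genes tested in these wells, 2 were higher and 2 lower at 1 day after SNI, 3 higher and 2 lower at 3 days, none passed against naive after SCI, and 1 was lower in SCI than in SNI at 1 day. These shares lie near those of all genes in the same fits (8.17% and 7.57% for SNI), so the counts do not set these genes apart. Log2 differences of all genes after SNI had a median of 0.64 at 1 day and 0.63 at 3 days. Their upper quartile was 2.68 at both days, above the values of Fads3 at 1 day and Mcat at 3 days given next. At 1 day after SNI, Fads3, a desaturase of sphingoid bases (log2 difference 2.60, edgeR adjusted p = 0.0641), and Mcat, the malonyl transferase of mitochondrial fatty acid synthesis (3.35, adjusted p = 0.0169), were higher. Acsl3 (-1.20, edgeR adjusted p = 0.0661) and Mid1ip1, an activator of acetyl-CoA carboxylase (-1.45, adjusted p = 0.0872), were lower. At 3 days Fads3 (3.02, edgeR adjusted p = 0.0514), Mcat (2.24, 0.0897) and Cpt2, of mitochondrial fatty acid import (1.33, 0.0792), were higher. Tecr (-0.51, edgeR adjusted p = 0.0435) and Hsd17b12 (-0.91, 0.0476), which complete the elongation cycle after the Elovl step, were lower. Acsl4, an acyl-CoA synthetase that prefers arachidonate, was lower at 1 day in SCI (61.1 to 93.8 CPM) than in SNI (103.7 to 301.6 CPM; -1.45, edgeR adjusted p = 0.0492, over all genes 0.889%). Without covariates, none of these genes passed (adjusted p from 0.295 to 0.87, and 0.5 for Acsl4).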

How the data were processed

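The 8 whole DRG and 66 well libraries were deposited by the authors as raw read counts per gene, made with STAR 2.5.3a and HTSeq 0.6.1 after adapter trimming with cutadapt, on GRCm38 per the submitters' processing notes. Tables of the authors' own fold changes and p-values were not used, nor were 123 columns of values per sample that match no sample here. Wells were summed per mouse. For whole DRG, genes averaging at least 10 counts (17616) and sorted-cell genes with at least 20 reads in 1 mouse (23507) were fitted with edgeR 4.0.16 (R 4.3.3, TMM, quasi-likelihood, Benjamini-Hochberg, threshold 0.1), with 2 RUVr factors for the sorted cells as the study did. The study also removed outlier samples of the sorted cells. The labels do not say which, so all 22 sorted mice were kept here. DESeq2 1.42.0 was an alternative. The comparisons were SCI against uninjured in whole DRG and, in the sorted cells, SNI and SCI at each day against naive and SCI against SNI. CPM were scaled to the reads on genes, and TPM also to exon length. All 10 members were named, and of the other lipid genes those that passed. The values of 1 gene of the oxidation list are not reported here. The members and lists were chosen with earlier results of these data known. The fits, but not the other steps, were tested on simulated data. For the sorted cells the simulated spread between mice was set below that of the data, and only genes with high counts were changed. With a simulated hidden factor the 2-factor fit also called unchanged genes, so p-values without covariates and exact 2-sided permutation p-values stand beside its calls. The labels name separate mice, and none of 429 pairs of libraries within a group agreed within sampling noise. The labels tie no replicate number to a shared litter or day, so no pairing was used. In the sorted cells same-numbered mice correlated more than other pairs (median 0.098 against -0.039), and a replicate block is given as an alternative. The sources used here do not say whether counting used strand.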

Additional observations from a re-analysis of the deposited data

Results flagged for a closer look

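In 8 of 100 groups of 4 or 6 mice, 1 mouse stood apart from the others by Dixon's test at 95%, where chance alone flags about 1 in 20. In whole DRG, SCI mouse 3 had 541 CPM of Fasn against 406 to 423 in the other SCI mice. With all wells summed, an SCI 3 day mouse of FACS2018 had 571 CPM of Elovl5 against 232 to 267, and an SNI 3 day mouse of FACS2018 had 360 CPM of Fads1 against 14.4 to 25.3, and all 3 wells of each were glia-rich. An SNI 1 day mouse of FACS2018 had 52.3 CPM of Scd1 against 209 to 270, and an SNI 3 day mouse of FACS had 8.80 CPM of Acacb against 0.0449 to 0.325. With the glia-rich wells left out, a naive mouse of FACS had 97.3 CPM of Fasn against 33.6 to 47.3. An SCI 1 day mouse of FACS2018 had 79.2 CPM of Elovl5 against 249 to 304, and an SCI 1 day mouse of FACS had 11.9 CPM of Elovl6 against 30.3 to 32.1. In the same wells Fasn was lower in every SCI mouse than in every SNI mouse at 1 day (SCI minus SNI, -1.11 on the log2 scale). The exact permutation p of 0.0286 was unadjusted and the smallest that 4 against 4 mice allow. Because 20 such tests between SCI and SNI were made in these wells, this single p does not show a difference between the injuries. The fit across all genes did not call it (edgeR adjusted p = 0.254). With all wells summed, the exact permutation p was 0.343.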

How the results depend on the processing

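The direction of the 10 members in whole DRG was kept in all 5 alternative settings and all 8 fits that left out a mouse, except for Elovl1, near 0, which kept it in 6 of the 8. Elovl6 passed in each of them. Calls of genes in whole DRG numbered 408, against 929 with DESeq2, 202 at an adjusted p of 0.05, 127 with the replicate number as a block (Acacb then had an adjusted p of 0.165) and 104 to 640 without 1 mouse (105, 104 and 145 without uninjured mice 2, 3 and 4, and 149, 169 and 640 without SCI mice 1, 2 and 3). Called members ranged from 1 to 5 without 1 mouse. In the sorted cells the counts, in the order SNI 1 day, SNI 3 days, SCI 1 day, SCI 3 days and SCI against SNI at 1 and 3 days, were 161, 166, 4, 0, 0 and 0. DESeq2 gave 1562, 2236, 1252, 1221, 1116 and 974 genes, with 1 member at SNI 3 days and 1 at SCI against SNI at 3 days. An adjusted p of 0.05 gave 50, 7 and 1 for the first 3, a mean count of at least 10 gave 328 and 9 for SNI and SCI 1 day, and DESeq2's size factors gave 10 for SCI 1 day. Residuals left uncentred gave 1, 2, 1 and, for SCI against SNI 1 day, 1. No covariates gave 0, 0 and 1, as did the set name (FACS or FACS2018) as the only covariate. Leaving out glia-rich wells, at 2% or at 3% of reads, gave 1848, 1712, 49 and, for SCI against SNI 1 day, 201, with 1 and 2 members after SNI. In those wells no covariates gave 39, 14 and 0, and the set alone gave 51, 57, 0 and, for SCI against SNI 1 day, 13, with 1 member at SNI 1 day. Both were chosen after seeing the data, as was leaving out each mouse for Elovl6 and Acly. Wells over 1% left out gave 952, 1691, 335, 50, 114 and 6, with 2 members each for SNI 1 day, SNI 3 days and SCI 1 day (Fasn and Scd2 in the last). Using only the naive mice labelled with the same day as the injury gave 100, 1 and 0 for the first 3. Within FACS the SNI counts were 1 and 9, and within FACS2018 the first 3 were 0. Without 1 mouse, counts ran from 30 to 592, 9 to 896, 1 to 30, 0 to 19, 0 to 7 and 0 to 64, with 0 to 1 member at SNI 3 days. A replicate block gave 1, 0 and 2 for the first 3, but the labels do not say that numbers pair mice. Deviations of same-numbered mice correlated from -0.158 to 0.257 (median 0.011) in whole DRG and from -0.027 to 0.419 (median 0.098) in the sorted cells, and those of other pairs from -0.313 to 0.306 (median -0.021) and from -0.338 to 0.266 (median -0.039). Elovl6 in glia-rich minus other wells of a mouse turned from 0.99 to -1.65 (log2) with wells split at 1%. The cause of these changes was not tested. Acacb had 0 reads in 11 of 20 glia-rich and 7 of 46 other wells, and how far depth sets these zeros was not tested.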

Other observations

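Of the 12 genes of fatty acid oxidation, 10 were higher and 2 lower in estimate after SCI in whole DRG (median log2 difference 0.10), and none passed edgeR's test. Over all genes tested 46.9% were lower in estimate (median 0.01). The list was chosen with earlier results of these data known, so this is a description and not a test. Pdk4 and Angptl4, named after their values were seen, passed an adjusted p of 0.1 in DESeq2. Pdk4, a kinase that shifts mitochondria from glucose to fatty acids, measured 5.15 to 7.94 CPM in uninjured and 10.9 to 36.1 CPM in SCI mice (log2 difference 1.43, adjusted p = 0.115 in edgeR and 0.0483 in DESeq2). Angptl4, a secreted inhibitor of lipoprotein lipase, measured 14.2 to 21.8 CPM and 20.5 to 31.1 CPM (log2 difference 0.49, adjusted p = 0.173 and 0.0596). Pdk4 did not overlap between groups, and Angptl4 did.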
